A study of Homo sapiens with 6 samples.

Results

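The autophagy machinery genes are 37 genes that form, load and expand the autophagosome, and they were chosen by their symbols, in 7 groups by role, from the 29123 gene names printed on an Agilent Whole Human Genome array. Each gene was read by the brightest of its probes. Total RNA from 2 established human ovarian adenocarcinoma cell lines, SKOV3 and A2780s, was compared on 6 arrays that read the dyes Cy3 and Cy5 side by side. In SKOV3, RNA of 2 clones carrying shRNA-Hic-5, sh-S1 and sh-S2, was set against RNA of a mock-transfected control clone (Ctrl), and in A2780s, RNA of 1 clone that overexpresses Hic-5 from the vector pCMV (pCMV-Hic-5) was set against RNA of its own mock-transfected Ctrl. Each pair of RNAs was hybridized on 2 arrays with the dyes exchanged. This gave 2 replicates in SKOV3, the clones, both against the same Ctrl RNA, and 1 pair of RNAs, with no test, in A2780s. The comparisons ask how the RNAs of this machinery differ when Hic-5, a focal adhesion adaptor encoded by TGFB1I1, is targeted or forced on.

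In autophagy, a double membrane grows around a piece of cytoplasm and delivers it to the lysosome. The ULK kinase complex starts the process, the class III PI3-kinase complex marks the site with a lipid, ATG9A vesicles and the ATG2 lipid channels feed the membrane, and 2 ubiquitin-like conjugation systems attach proteins of the ATG8 family (LC3 and GABARAP) to it. Cargo receptors such as p62, the product of SQSTM1, bind ubiquitinated cargo on one side and the ATG8 family on the other, and are degraded along with it. Much of this machinery is regulated on the protein, so RNA ratios say nothing about autophagic flux.

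The knockdown construct and the probes decide what was measured, so their sequences are given first, all 5′ to 3′. The labels name 2 shRNA target sequences in the Hic-5 mRNA without saying which clone carries which.
shRNA target 1: cagttcaacatcacagatgaa
shRNA target 2: cggttgcttcaggaacttaat
Below are the first 30 of the 60 bases of the probes for the members that passed a call in either cell line (SQSTM1, OPTN and WIPI2) and for GABARAPL1, with the coordinates the scanner files give on hg19. SQSTM1 and OPTN were each read by 1 probe, WIPI2 by 3 and GABARAPL1 by 2, and the probes of WIPI2 did not give the same ratio, as described further on.
SQSTM1, chr5:179263709-179263768, plus strand: ggttagggtgcaagaagccatttagggcag
OPTN, chr10:13178844-13178903, plus strand: acgtgatggattgcatcatttaagtgttga
WIPI2, brightest probe, chr7:5270616-5270675, plus strand: actggcttcacagaggactttgtgcattgc
WIPI2, further probe, chr7:5271185-5271244, plus strand: ttttgtttctgatcttgttttccctgtgga
WIPI2, further probe, chr7:5273021-5273080, plus strand: agggaccctgaaccaaacagaacgtgtgct
GABARAPL1, brightest probe, chr12:10375058-10375117, plus strand: gatctcttacctttggaaaataggggttag
GABARAPL1, further probe, chr12:10374676-10374735, plus strand: ggattggctttgatagaggaatggggatga

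The targeted gene was checked first, because it tests the labels. In SKOV3 Ctrl the TGFB1I1 probe was well above background on 4 of 4 arrays. Its log2 signal there was low, at 8.22 against 12.78 in A2780s Ctrl. A fall from so low a signal can be understated in the ratio, and by how much was not tested. In SKOV3 the log2 ratio of TGFB1I1 was -0.16 and 0.12 on the arrays of sh-S1 and -0.11 and 0.28 on those of sh-S2, a mean of 0.03 (limma, adjusted p = 0.85). The RNAs labelled as knockdown clones were thus not lower in Hic-5 RNA by this probe. The same RNAs were far below Ctrl in PAX8 (-3.58), KRT18 (-3.52), ERBB2 (-2.28) and KRT8 (-2.14), which mark Müllerian epithelium, simple epithelium and, for ERBB2, the SKOV3 line itself. In A2780s Ctrl the same 4 genes were also lower than in SKOV3 Ctrl, with log2 differences from -5.54 to -2.51 in Cy3. WT1 (-0.02), MUC16 (0.06) and SOX17 (0.09), the other epithelial or ovarian markers tested, did not pass, and VIM, a mesenchymal marker, rose to 0.42 (limma adjusted p = 0.0184) with opposed signs in the dye orientations. CDH1 and EPCAM were too dim in SKOV3 to be tested. The part of these differences in the ratios of the autophagy genes was not tested, and the SKOV3 directions below are those of RNAs that carry the labels sh-S1 and sh-S2. In A2780s, TGFB1I1 was higher in pCMV-Hic-5 by 4.05 and 2.60 on the arrays. A2780s Ctrl had itself a higher TGFB1I1 signal than SKOV3 Ctrl, by 3.56 in Cy3 and 5.55 in Cy5 on the log2 scale. Cy5 was weak on the SKOV3 arrays, with a median net signal of 9.52 to 25.5 against 373 to 530 in Cy3, and in 14 of the 36 members tested the mean ratio had opposed signs in the dye orientations, next to 44.6% of all genes tested. PIK3R4, for example, had ratios of -0.57 and -0.51 with the clones in Cy5 and of 0.08 and 0.16 with the clones in Cy3.

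In SKOV3, the members that fell lay mostly among cargo receptors (3 of 5) and conjugation genes (3 of 7), and those that rose included GABARAPL1, GABARAP and WIPI2. Of the 37 members, 36 passed the filter on signal and were tested. By an adjusted p of at most 0.05 alone, 4 rose and 9 fell, against 16.5% and 16.3% of the 18740 genes tested that rose and fell, and 23 members did not pass. With a change of at least 2-fold added, 1 member rose (WIPI2) and 2 fell (SQSTM1 and OPTN), against 3.45% higher and 4.47% lower over all genes. The median log2 ratio of the members was -0.02, next to 0.01 over all genes, and the range ran from -1.89 for OPTN to 1.02 for WIPI2. For 29 of the 36 tested members (80.6%) the 95% interval lay wholly inside a 2-fold change in either direction, against 86.9% of all genes tested. That interval, like the test, rests on 2 clones and leaves out the spread of the single Ctrl RNA. In bulk RNA a lower share of cells that express a gene and less RNA per cell cannot be told apart.

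**Figure D1:**
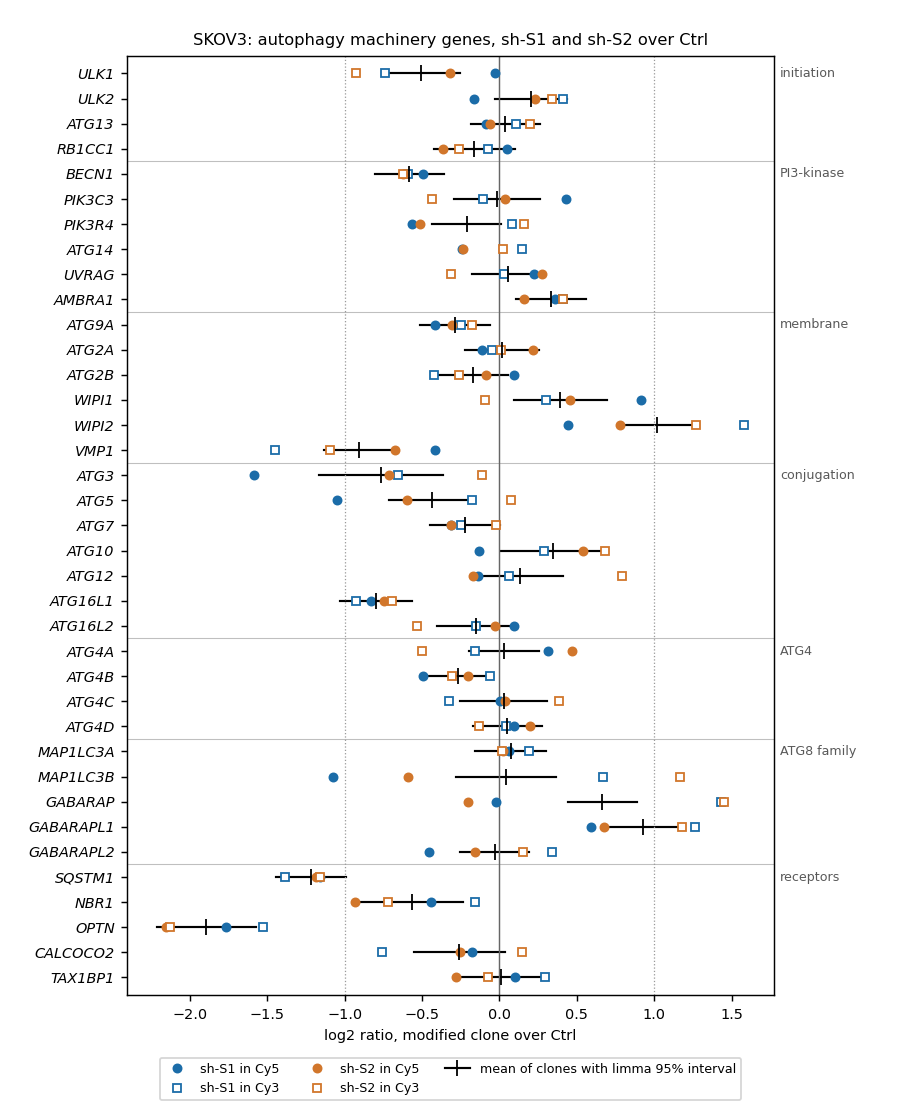
Log2 ratio of each clone over Ctrl in SKOV3 for the 37 members, grouped by role, with 1 point for each of the 4 arrays, filled where the clone was in Cy5 and open where it was in Cy3. Black marks give the mean of the clones with limma's 95% interval, dotted lines a 2-fold change, and SQSTM1, OPTN and WIPI2 have means beyond these lines (ATG14, with no interval, was not tested).

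Among the cargo receptors, SQSTM1 and OPTN fell, NBR1 fell by less than 2-fold, and CALCOCO2 and TAX1BP1 did not pass the test by their brightest probes. SQSTM1, the receptor p62, had log2 ratios of -1.16 and -1.38 on the arrays of sh-S1 and -1.18 and -1.16 on those of sh-S2. Its log2 signal was 11.80, 11.72, 11.78 and 11.69 in Ctrl on these 4 arrays and 10.64, 10.34, 10.60 and 10.54 in the clones. The clones were below Ctrl on all 4 arrays, as for 18.9% of all genes tested, and these arrays hold 1 Ctrl RNA and 2 clone RNAs. The mean of -1.22 (SE 0.09, limma adjusted p = 0.000176) corresponds to 0.429 times the Ctrl. OPTN, optineurin, a receptor for damaged mitochondria and bacteria, had ratios of -1.77 and -1.53 in sh-S1 and -2.15 and -2.13 in sh-S2. Its log2 signal was 12.69, 12.41, 12.66 and 12.68 in Ctrl against 10.92, 10.88, 10.50 and 10.55 in the clones, again below Ctrl on all 4 arrays. OPTN thus fell to 0.269 times the Ctrl (mean -1.89, SE 0.13, limma adjusted p = 0.000119), the largest change in either direction among the 36 tested members.

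The other receptors changed less. NBR1, a receptor built much like p62 that cooperates with it, had ratios of -0.44 and -0.16 in sh-S1 and -0.94 and -0.72 in sh-S2, all below 0, with a mean of -0.57 (SE 0.14, limma adjusted p = 0.0216). CALCOCO2, or NDP52, a receptor in the clearance of bacteria and mitochondria, had ratios of -0.17 and -0.76 in sh-S1 and -0.25 and 0.14 in sh-S2, with an interval from -0.55 to 0.03. Its further probes gave -0.15, which did not pass, and -0.48, which did (limma adjusted p = 0.0139) and was below 0 on all 4 arrays. TAX1BP1, a relative of CALCOCO2 that binds ubiquitin, had ratios of 0.10 and 0.29 in sh-S1 and -0.28 and -0.07 in sh-S2, with an interval from -0.27 to 0.29. By their brightest probes, 3 of the 5 receptors passed the adjusted p, all downwards.

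The ATG8 family, whose members coat the growing membrane and bind the receptors, included 2 of the 4 members that rose by the adjusted p. GABARAPL1 had ratios of 0.59 and 1.26 in sh-S1 and 0.67 and 1.18 in sh-S2. Its clones were above Ctrl on every array, as for 19% of all genes tested. The mean of 0.93 (SE 0.09, limma adjusted p = 0.000525) corresponds to 1.90-fold, just short of the 2-fold limit. GABARAP had a mean of 0.67 (limma adjusted p = 0.00231), but its ratios were -0.02 and -0.20 with the clones in Cy5 and 1.43 and 1.45 with the clones in Cy3. The direction of GABARAP therefore came from 1 dye orientation.

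MAP1LC3B, which encodes LC3B, the form of LC3 most used to follow autophagosomes, split by dye more widely still. Its ratios were -1.07 in sh-S1 and -0.59 in sh-S2 with the clones in Cy5, and 0.67 and 1.17 with the clones in Cy3, around a mean of 0.04 (interval -0.28 to 0.36). The accessions listed for that probe belong to MAP1LC3B and to its near copy MAP1LC3B2, so their signals cannot be separated. The further 2 probes of MAP1LC3B, for each of which 1 of 2 accessions could be matched to a gene, and to MAP1LC3B, gave -0.25 and -0.38, and the second of these passed the test (limma adjusted p = 0.029). MAP1LC3A lay at 0.06 and 0.19 in sh-S1 and at 0.02 in both orientations of sh-S2. GABARAPL2, or GATE-16, had ratios of -0.45 and 0.34 in sh-S1 and -0.16 and 0.15 in sh-S2. Neither passed the test, with intervals of -0.15 to 0.30 for MAP1LC3A and -0.25 to 0.19 for GABARAPL2.

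In the initiation complex, ULK1, the kinase that starts autophagy when nutrients are short, fell by the adjusted p to a mean of -0.50 (limma adjusted p = 0.0109), with ratios of -0.03, -0.74, -0.32 and -0.93. Its further probe gave -0.11 and did not pass. The sister kinase ULK2 (mean 0.20), the scaffold ATG13 (0.04) and RB1CC1 (-0.16), which encodes the scaffold FIP200, did not pass either.

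In the class III PI3-kinase complex, BECN1, the Beclin 1 subunit that many regulators bind, fell on all arrays by its brightest probe. Its ratios were -0.49 and -0.59 in sh-S1 and -0.62 in both orientations of sh-S2, with a mean of -0.58 (limma adjusted p = 0.00401), and a further probe gave -0.74 with all 4 arrays below 0. The third probe, at -0.34 and also past the adjusted p, split by dye, with -1.03 and -1.12 for the clones in Cy5 and 0.39 and 0.38 for Cy3. AMBRA1, a partner of Beclin 1, rose slightly to 0.33 (limma adjusted p = 0.0365) with ratios from 0.16 to 0.41. The lipid kinase PIK3C3 (VPS34) had a mean of -0.02, its regulatory subunit PIK3R4 (VPS15) of -0.21 and UVRAG, the subunit of the late complex, of 0.05, and none of these passed. ATG14, which directs the complex to the site of autophagosome formation, exceeded background clearly in the clones on 2 of 4 arrays and in Ctrl on 2 of 4, and was not tested in SKOV3.

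Among the genes for membrane supply and expansion, WIPI2 rose and VMP1 fell. WIPI2, which reads the lipid made by the PI3-kinase and recruits ATG16L1, had ratios of 0.44 and 1.58 in sh-S1 and 0.78 and 1.27 in sh-S2. Its log2 signal was 12.29, 11.71, 12.22 and 11.60 in Ctrl and 12.74, 13.29, 13.00 and 12.87 in the clones. The clones were above Ctrl on all 4 arrays, as for 19% of all genes tested. The mean was 1.02 (SE 0.09, limma adjusted p = 0.000354), or 2.03-fold. The further probes of WIPI2 gave 0.22, which did not pass, and 0.34 (limma adjusted p = 0.043), so the 2-fold change belonged to 1 probe of 3. With the mean over its probes WIPI2 stood at 0.52, and with the clones in Cy5 only at 0.61, both under 2-fold.

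VMP1, an endoplasmic reticulum protein that moves lipids to the forming membrane, had ratios of -0.42, -1.45, -0.67 and -1.10, with a mean of -0.91 (limma adjusted p = 0.000584). A further probe that bears the VMP1 symbol gave -1.22, but it lies on the opposite strand and lists no RefSeq transcript, and which RNA it reads was not tested. WIPI1 had a mean of 0.39 and narrowly missed the test (limma adjusted p = 0.0544), as did ATG9A, the lipid scramblase of the seed vesicles, at -0.29 (limma adjusted p = 0.0595). The lipid transfer proteins ATG2A (0.02) and ATG2B (-0.17) did not pass.

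Of the 7 genes for conjugation, 3 fell by the adjusted p, none by 2-fold, and none rose. ATG16L1, which places the conjugation enzyme on the membrane, was the most even, with ratios of -0.83 and -0.93 in sh-S1 and -0.75 and -0.69 in sh-S2 (mean -0.80, limma adjusted p = 0.00124). ATG3, the E2 enzyme that attaches the ATG8 family to lipid, had ratios of -1.58 and -0.65 in sh-S1 and -0.71 and -0.11 in sh-S2 (mean -0.76, limma adjusted p = 0.0137). ATG3 was thus lower in sh-S1 than in sh-S2 in both dye orientations, and in sh-S1 alone it stood at -1.12, beyond 2-fold. The further probes of ATG16L1 and ATG3, too dim in SKOV3 to be tested, gave 0.02 and -0.02. ATG5, the acceptor of ATG12, had a mean of -0.44 (limma adjusted p = 0.0283) with ratios from -1.05 to 0.08, and its further probe gave -0.15 and did not pass. ATG7, the shared E1 enzyme (-0.22), ATG10, the E2 enzyme of ATG12 (0.35), ATG12 (0.14) and ATG16L2 (-0.15) did not pass, although a further probe of ATG7 gave -0.59 and did (limma adjusted p = 0.00863). The ATG4 proteases, which trim the ATG8 family before conjugation and free it afterwards, lay between -0.27 for ATG4B and 0.05 for ATG4D, and 0 of the 4 passed by limma's adjusted p, with 1 of the 4 at an unadjusted p of at most 0.05.

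In A2780s, SQSTM1 was the member that stood apart. A member was called there when the mean of both arrays reached 1.5-fold and the arrays had the same direction, a description of 1 pair of RNAs and not a test. By this rule 1 of 37 members was higher and 0 were lower, against 3.42% higher and 1.43% lower over the 22019 genes measured. SQSTM1 was higher in pCMV-Hic-5 by 1.37 and 1.04 on the log2 scale, a mean of 1.21 or 2.31-fold. Its log2 signal was 10.77 and 10.95 in Ctrl and 12.14 and 11.99 in the clone. SQSTM1 was thus below Ctrl on 4 of 4 arrays in SKOV3, like 18.9% of all genes tested there. It was above Ctrl on 2 of 2 arrays in A2780s, like 30% of all genes measured there. The comparisons share no RNA. TGFB1I1 was not measured as lower in the SKOV3 clones, so these directions cannot be set against each other as less and more Hic-5.

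**Figure D2:**
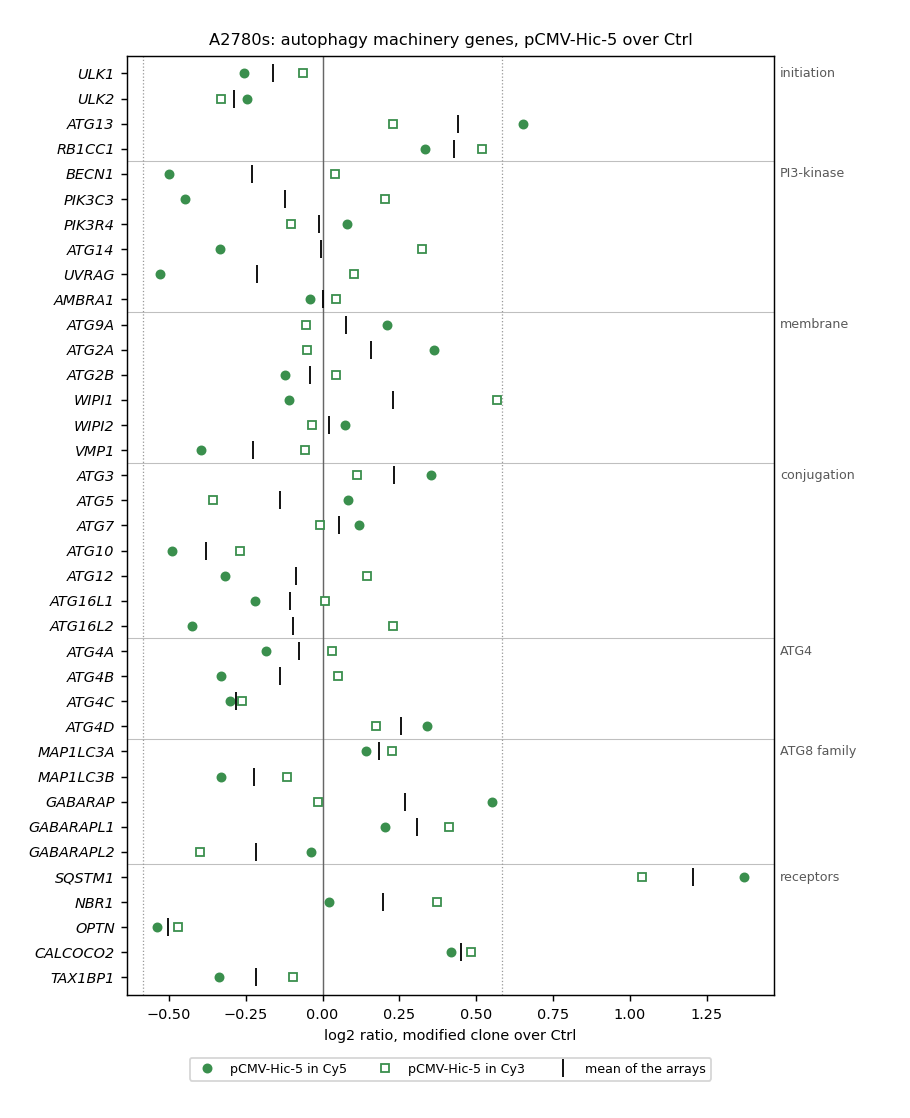
Log2 ratio of pCMV-Hic-5 over Ctrl in A2780s for the 37 members, with a filled point for the array with the clone in Cy5, an open one for Cy3 and a black mark for their mean. Dotted lines mark 1.5-fold, and SQSTM1, at 1.37 and 1.04, has the sole mean beyond them.

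OPTN and CALCOCO2 held the next values in size. OPTN was lower by 0.54 and 0.47 on the arrays, a mean of -0.50 or 0.705 times the Ctrl, short of 1.5-fold. CALCOCO2 was higher by 0.42 and 0.48 (mean 0.45), NBR1 by 0.02 and 0.37 (mean 0.20), and TAX1BP1 stood at -0.34 and -0.10 (mean -0.22). All 5 receptors had the same direction on both arrays, 3 up and 2 down, as did all 4 genes of the initiation complex and 4 of the 5 of the ATG8 family. In the remaining groups this held for 0 of 6 PI3-kinase, 1 of 6 membrane supply, 2 of 7 conjugation and 2 of 4 protease genes. Over the 37 members 18 had the same direction on both, 9 up and 9 down, and 19 had opposed signs. Over all genes measured 40.6% had opposed signs.

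**Figure D3:**
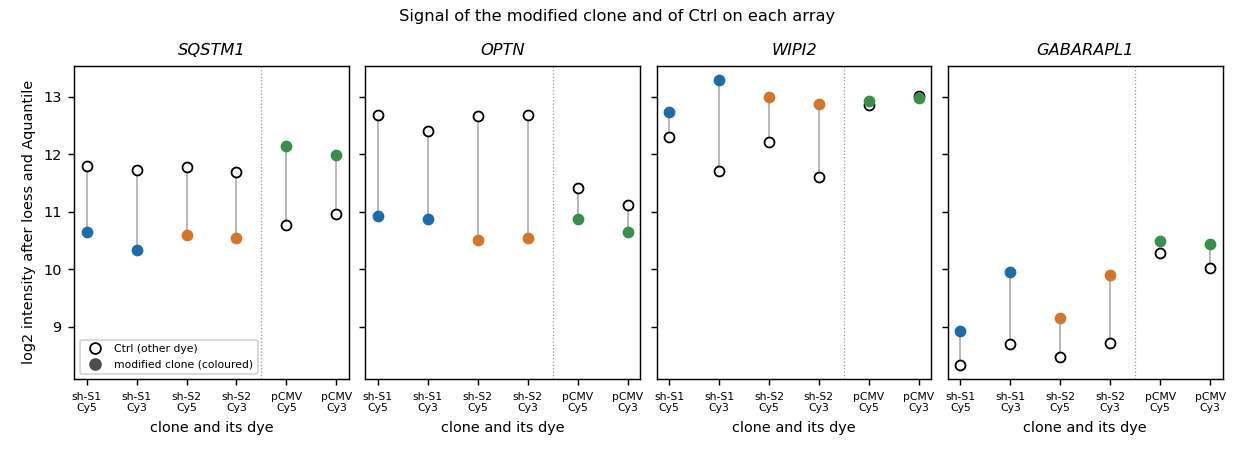
Log2 signal of the modified clone (coloured) and of Ctrl (open) on each of the 6 arrays for SQSTM1, OPTN, WIPI2 and GABARAPL1, after normalization between arrays, with the dye of the clone under each pair. SQSTM1 lies under Ctrl on the 4 SKOV3 arrays and above it on both A2780s arrays, and OPTN lies under Ctrl on all 6.

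The ATG8 family moved little in A2780s. GABARAPL1 was at 0.20 and 0.41, GABARAP at 0.55 and -0.01, MAP1LC3A at 0.14 and 0.23, GABARAPL2 at -0.04 and -0.40, and the brightest probe of MAP1LC3B at -0.33 and -0.12. The further probes of MAP1LC3B were above 0 on both arrays, with means of 0.34 and 0.57, so its probes opposed each other in sign. Of the initiation complex, ATG13 was at 0.65 and 0.23 (mean 0.44, and 0.55 by its further probe) and RB1CC1 at 0.33 and 0.52 (mean 0.43), while ULK1 (-0.16) and ULK2 (-0.29) lay below 0. The class III PI3-kinase complex ran from -0.23 for BECN1 to 0.00 for AMBRA1, and each of its 6 genes had opposed signs on the arrays. Among membrane supply, conjugation and protease genes the means ran from -0.38 for ATG10 to 0.26 for ATG4D. WIPI2, VMP1, ATG16L1 and ATG3 stood at 0.02, -0.23, -0.11 and 0.23.

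Agreement between probes set a limit on single genes in both lines. Of the 37 members, 17 were read by 1 probe and 20 by 2 or 3, 62 probes in all. In SKOV3, 16 members had 2 or more tested probes, and for 11 of them all tested probes had the same sign; the rest were ATG12, ATG4B, ATG4C, GABARAPL2 and MAP1LC3B. In A2780s the signs were the same for 10 of 17. SQSTM1 and OPTN, with 1 probe each, had no such check.

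**Figure D4:**
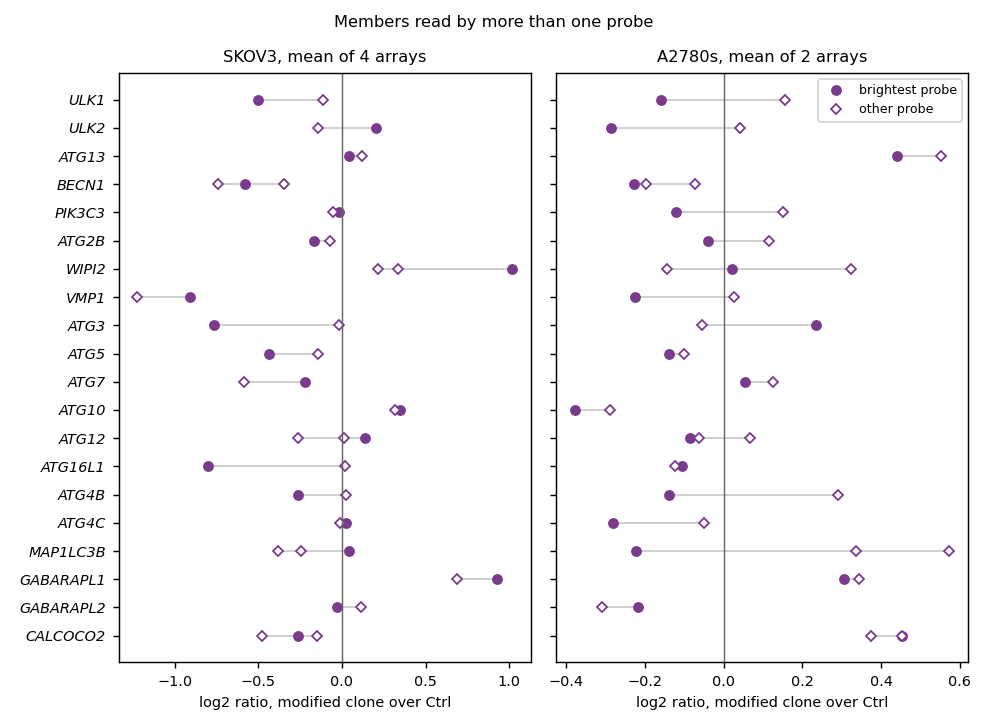
Mean log2 ratio of each probe for the 20 members with more than 1 probe, over the 4 SKOV3 arrays (left) and the 2 A2780s arrays (right), with the brightest probe filled; dim probes that were not tested are drawn too. The WIPI2 probes lie at 0.22, 0.34 and 1.02 in SKOV3, and the MAP1LC3B probes fall on both sides of 0 in both lines.

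The Ctrl RNAs of the cell lines differed as well. These values share the SKOV3 Ctrl with the ratios above, were set across slides, and have no replicate RNA, so they are given side by side and without a test. On the log2 scale, A2780s Ctrl minus SKOV3 Ctrl was -1.02 in Cy3 and -0.76 in Cy5 for SQSTM1, and -1.26 and -1.43 for OPTN. For VMP1 it was -1.19 and -1.74, for WIPI2 0.60 and 1.35, and for GABARAPL1 1.88 and 1.32. Thus SQSTM1, OPTN and VMP1 were lower, and WIPI2 and GABARAPL1 higher, in A2780s Ctrl than in SKOV3 Ctrl. These genes were picked by their SKOV3 ratios, which use the same SKOV3 Ctrl, so a shared direction adds no support. Of the other members past the adjusted p, BECN1 (0.41 in Cy3, -0.63 in Cy5) and GABARAP (-0.20 and 1.00) had opposed signs. ULK1, NBR1, ATG3, ATG5 and ATG16L1 were lower, and AMBRA1 higher, in both dyes. Cell line and slide cannot be told apart here.

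Around the machinery, 71 further genes in 4 lists were read: nutrient and energy signalling upstream of ULK1, transcription factors known to act on autophagy genes, further machinery with fusion and regulator genes, and receptors outside the members. These lists were chosen with earlier results of these data known, so their shares describe the lists and test nothing. In A2780s, 9 of the 70 measured were higher (12.9%) and 0 lower, against 3.42% and 1.43% over all genes. They included DDIT3 (3.01 and 2.81 on the arrays, mean 2.91), CEBPB (1.70 and 2.34, mean 2.02) and ATF4 (1.61 and 1.35, mean 1.48), 3 of the 11 transcription factors. ATF4 and DDIT3, or CHOP, are effectors of the integrated stress response, and CEBPB encodes a partner of theirs. With the mean over its probes CEBPB was at 1.12. Of the 20 signalling genes, 4 were higher, namely TRIB3 (mean 2.29), a known target of ATF4 and CHOP that restrains AKT, DDIT4 (1.29) and SESN2 (0.76, or 0.57 with the clone in Cy3 only, under 1.5-fold), which restrain mTORC1, and PRKAB1 (0.65), a subunit of AMPK. The other two were CCPG1 (0.98), a receptor for the endoplasmic reticulum, and TMEM41B (0.79), a lipid scramblase that works with VMP1.

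In SKOV3, 67 of the 71 were tested, of which 10 rose and 15 fell by the adjusted p, against 16.5% and 16.3% over all genes, and 3 rose and 5 fell by 2-fold, against 3.45% and 4.47%. Among signalling genes SESN3 (mean 1.66, limma adjusted p = 7.86e-05) and DDIT4 (1.09, limma adjusted p = 0.013) rose. SESN3 was well above background in Ctrl on 2 of 4 arrays, so it passed the filter only through the clones, where it was high. Its p therefore adds no support. The size of its change also depended on the background correction, at 2.49 with an offset of 16, 3.81 with plain subtraction and 4.93 with processed signals. Without sh-S2, DDIT4 stood at 0.54 and was not called. Among transcription factors MITF (-1.41, limma adjusted p = 0.000419), CEBPB (-1.13, limma adjusted p = 0.0114) and E2F1 (-1.06, limma adjusted p = 0.000297) fell, although without sh-S1 CEBPB stood at -0.58. With the clones in Cy5 only, MITF (-0.79) and E2F1 (-0.68) were under 2-fold. Of the mitophagy genes outside the members, PINK1, the kinase that flags damaged mitochondria, fell evenly by -1.62, -1.47, -1.62 and -1.53 (mean -1.56, limma adjusted p = 5.88e-05), and the receptor BNIP3 rose to 1.17 (limma adjusted p = 0.0306), or 0.40 without sh-S2. RUBCN, which encodes Rubicon, an inhibitor of the PI3-kinase complex, fell to -1.19 (limma adjusted p = 0.000574), and stood at -0.99 both without sh-S2 and with the clones in Cy5 only.

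**Figure D5:**
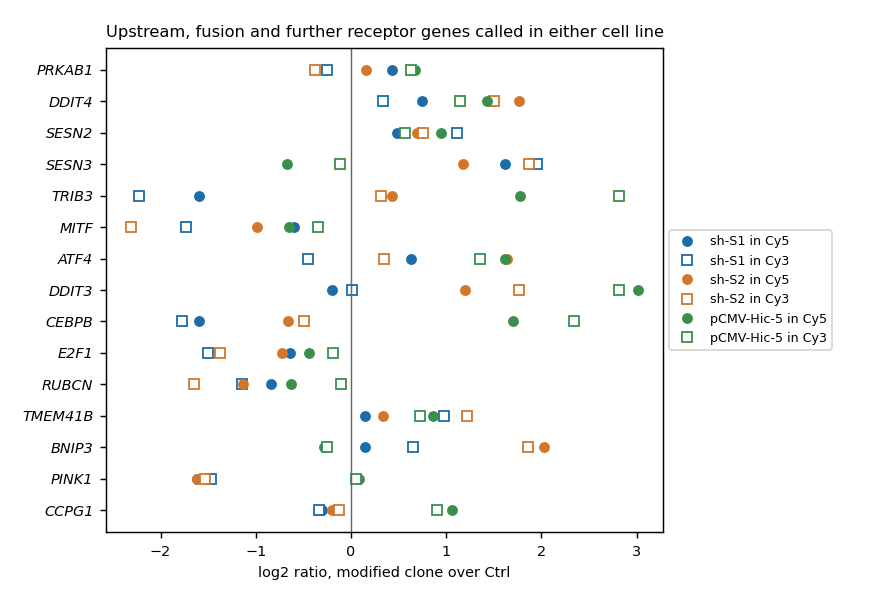
Log2 ratio of the modified clone over Ctrl on each of the 6 arrays for the 15 upstream, fusion and further receptor genes called in either cell line. The A2780s points of DDIT3, CEBPB, ATF4 and TRIB3 lie at 1.35 or more, and those of PINK1 lie near 0 while its SKOV3 points lie between -1.62 and -1.47.

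RefSeq promoter windows (GRCh38.p14, 250 bases before to 50 after a start) were found for 33 of the 37 members, 41 windows in all, and were searched on both strands for 3 motifs. The CLEAR core CACGTG, read by TFEB and MITF, was in windows of 2 members, ATG3 and ATG14, against 7.26% of the 35116 windows. The C/EBP-ATF element TTGCNTCA was in those of ATG7 and TAX1BP1, against 3.22%. The antioxidant response element TGACNNNGC was in those of CALCOCO2 and MAP1LC3B, against 13.3%. Each motif was in 4.88% of the member windows. No window of SQSTM1, OPTN or WIPI2 held any of these letters, which says nothing of sites elsewhere. Whether TFEB or MITF acts on ATG3 was not tested. Shown are the window of ATG3, which fell in SKOV3 and held the CLEAR core at 2 places (capitals), and that of the most 3′ of 3 annotated starts of SQSTM1, the member called in both lines, with no match.
ATG3, chr3:112561913-112562212, minus strand: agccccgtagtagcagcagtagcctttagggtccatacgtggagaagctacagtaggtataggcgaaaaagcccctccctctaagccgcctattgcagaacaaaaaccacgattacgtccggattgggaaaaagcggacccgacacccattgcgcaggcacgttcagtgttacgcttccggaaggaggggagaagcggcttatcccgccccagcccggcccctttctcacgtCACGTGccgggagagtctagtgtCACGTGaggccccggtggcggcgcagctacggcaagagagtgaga
SQSTM1, chr5:179820655-179820954, plus strand: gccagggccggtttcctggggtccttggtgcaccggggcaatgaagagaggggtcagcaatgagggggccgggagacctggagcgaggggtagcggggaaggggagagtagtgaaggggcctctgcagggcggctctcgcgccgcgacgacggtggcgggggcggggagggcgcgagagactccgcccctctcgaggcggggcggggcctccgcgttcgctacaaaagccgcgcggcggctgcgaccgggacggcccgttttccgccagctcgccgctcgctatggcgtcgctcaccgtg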

How the data were processed

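Expression was measured in 6 two-colour Agilent arrays of SKOV3 and A2780s clones. The authors deposited spot intensity values in Cy5 and Cy3 with local background, as read by Feature Extraction (version 8.5.1.1 in the submitters' processing notes). The header of the scanner output gives a grid placement version of 10.7.3.1, and which version applies is not known. Log10 ratios of Cy5 over Cy3 were deposited as well. The deposited series values repeat these ratios to a relative difference of 0.00497, and the ratios were not used. From the intensities, limma 3.58.1 in R 4.3.3 corrected the background (normexp, offset 50) and normalized ratios within each array by loess; levels per channel were then scaled between arrays (Aquantile). Spots flagged as outliers were left out, from 121 to 362 per array. On 1 A2780s array, 40 spots with a background over 1000 were left out as well. All ratios are log2 of modified clone over Ctrl, averaged over dye swaps. In SKOV3, lmFit and eBayes tested whether the ratios of 2 clones differ from 0, with p adjusted by Benjamini-Hochberg over 24958 probes. The clones are separate, but nothing states separate cultures. The p-values rest on the spread between these 2 RNAs, which eBayes moderates towards a spread pooled over all probes (5.53 prior degrees of freedom). The spread between dye orientations was averaged out first and does not enter them directly. Probes were kept if well above background in Ctrl on every array of the line, or in 1 clone on both arrays. Members, gene lists, named genes (all members by role, and called genes of the other lists) and thresholds were chosen with earlier results of these data known. Alternatives changed the background correction, its offset, normalization, filter, probe choice, dye orientation, clones and variance model. Precision is limited by the number of arrays.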

Additional observations from a re-analysis of the deposited data

Results flagged for a closer look

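For 3 genes both arrays of sh-S1 lay on one side of 0 and both arrays of sh-S2 on the other. The difference between the clones was not tested. The share of such genes over all genes was not counted, so the count cannot be read as a trait of these genes. TRIB3 differed most, with sh-S1 minus sh-S2 at -2.29 on the log2 scale, from ratios of -1.59 and -2.23 in sh-S1 and 0.43 and 0.32 in sh-S2. For TAX1BP1 the difference was 0.38, and for ATG2A it was -0.19. The ATG2A ratios lay close to 0, at -0.11 and -0.05 in sh-S1 and 0.22 and 0.01 in sh-S2. Its probe was well above background in the clones on 2 of 4 arrays.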

How the results depend on the processing

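SQSTM1 and OPTN were called lower under every SKOV3 alternative run, and SQSTM1 higher under every A2780s alternative run; no result changed sign past its threshold. The count of members called higher in SKOV3, 1 as reported, was 2 with processed signals, plain subtraction or an offset of 16, 0 with the mean over probes or the clones in Cy5 only, and 3 with the clones in Cy3 only. The 9 members lower by the adjusted p alone became 5 with plain subtraction. Leaving out a clone gave 1 higher, and 2 or 3 lower, by 2-fold. In A2780s the 1 member higher became 2 with the clone in Cy5 only, where ATG13 reached 0.65. WIPI2 fell under 2-fold with median centring (0.84), and GABARAPL1 passed it there (1.08), with processed signals (1.76), plain subtraction (1.72), an offset of 16 (1.28) and the clones in Cy3 only (1.22). ATG16L1 passed it with processed signals (-1.19), plain subtraction (-1.26) and an offset of 16 (-1.02). VMP1 was also lower by 2-fold with median centring (-1.09), the mean over probes (-1.07) and the clones in Cy3 only (-1.27). With the clones in Cy5 only, ATG3 was (-1.15). MITF, SESN3 and CEBPB fell under 2-fold in SKOV3 with the mean over probes (-0.80, 0.91 and -0.56), DDIT4 and BNIP3 lost their calls with median centring (0.91 and 1.03), and GABARAP passed 2-fold with the clones in Cy3 only (1.44). The causes were not tested. No paired analysis was possible because, beyond the pairing of clone and Ctrl on each array that every ratio uses, the array numbers mark dye orientation and pair no RNAs across groups. Weak Cy5 signal on the SKOV3 arrays limits dim members, and ATG14 could not be tested there.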
